A study of Mus musculus with 12 samples.

Results

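The 10 serotonin receptor genes described here, Htr3a, Htr3b, Htr1a, Htr1b, Htr2a, Htr2c, Htr4, Htr5a, Htr6 and Htr7, are 10 of 19938 genes measured on expression arrays of the mouse hippocampus and olfactory bulb. The list was taken by gene symbol, and each gene is read by 1 probe set that names no other gene, the brightest where there were several. The list was chosen by its values between genotypes, in that Htr3a reads higher in knockout in both tissues, so the genotype difference of Htr3a is described and not tested. The samples are 12: hippocampus and olfactory bulb of 3 wild-type mice and of 3 mice without RasGRF2 (labelled GRF2 KO), a calcium-responsive exchange factor that activates Ras and Rac. All are adult animals of the C57BL/6 background kept in a conventional animal house, and none was treated. The sources used here do not say which part of the gene is deleted, whether the mice were littermates or what sex they were. Each tissue was read as 1 array per animal, and both tissues come from the same animals.

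Serotonin reaches both tissues in fibres of raphe neurons in the brainstem, and its receptors sit on local neurons and on incoming axons. Htr3a and Htr3b encode subunits of a cation channel opened by serotonin. The other receptors on the list act through G proteins: Htr1a, Htr1b and Htr5a through Gi, which lowers cyclic AMP, Htr2a and Htr2c through Gq and phospholipase C, and Htr4, Htr6 and Htr7 through Gs, which raises cyclic AMP. In the forebrain Htr3a marks a class of interneurons born in the caudal ganglionic eminence, and Htr1a and Htr4 are known from hippocampal principal neurons.

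Upstream sequences are shown for 4 receptors whose level separated the tissues, a pair higher in hippocampus (Htr1a and Htr1b) and a pair higher in the bulb (Htr2a and Htr5a). Each is the 250 bases before the RefSeq start of the gene, 5′ to 3′ on the gene's own strand, from assembly GRCm38.p6. Windows were obtained for 8 of the 10 receptors. Htr3a had no entry, and Htr4 was left out of the search beforehand, so its window was not examined. Capitals mark 3 motifs on either strand: the TATA box, spelled TATAAA, the CAAT box, spelled CCAAT, and the GC box, spelled GGGCGG. No match overlaps another in these windows.
Htr1a (chr13:105443443-105443692, plus strand): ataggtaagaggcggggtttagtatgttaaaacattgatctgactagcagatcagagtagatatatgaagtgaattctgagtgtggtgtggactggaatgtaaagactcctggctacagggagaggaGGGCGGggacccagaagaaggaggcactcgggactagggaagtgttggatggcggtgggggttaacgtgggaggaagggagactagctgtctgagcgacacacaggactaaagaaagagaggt
Htr1b (chr9:81633833-81634082, minus strand): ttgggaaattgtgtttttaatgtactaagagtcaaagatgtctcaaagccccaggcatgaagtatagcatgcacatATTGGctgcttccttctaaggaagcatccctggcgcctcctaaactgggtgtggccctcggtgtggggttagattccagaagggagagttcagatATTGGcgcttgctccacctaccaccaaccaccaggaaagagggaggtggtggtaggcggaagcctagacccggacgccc
Htr2a (chr14:74640624-74640873, plus strand): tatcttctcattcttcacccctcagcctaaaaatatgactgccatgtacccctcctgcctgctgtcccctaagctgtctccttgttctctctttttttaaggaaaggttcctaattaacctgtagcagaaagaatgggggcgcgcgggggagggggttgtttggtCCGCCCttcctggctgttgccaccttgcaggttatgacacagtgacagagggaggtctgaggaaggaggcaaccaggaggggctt
Htr5a (chr5:27841697-27841946, plus strand): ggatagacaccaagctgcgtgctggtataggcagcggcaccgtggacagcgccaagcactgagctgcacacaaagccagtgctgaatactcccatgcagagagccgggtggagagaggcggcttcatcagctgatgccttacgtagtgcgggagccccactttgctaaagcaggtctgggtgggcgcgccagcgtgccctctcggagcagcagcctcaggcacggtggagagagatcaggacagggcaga
Htr1a and Htr2a each hold 1 GC box, Htr1b holds 2 CAAT boxes, read here as their reverse complement, and Htr5a holds none of the 3 motifs. Among all 32851 mouse promoter windows of this length, 32.7% hold the GC box, 33.9% the CAAT box and 12.4% the TATA box. Their median GC content is 52.4%, against 50.4% for Htr1a, 52.4% for Htr1b, 52.8% for Htr2a and 62.0% for Htr5a. The motifs present do not separate the pair that was higher in hippocampus from the pair that was higher in the bulb.

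The values are log2 intensities, so a difference of 1 is a doubling of the signal. Tissue was the largest source of variation, with 79.6% of the variance over genes on the 1st principal component. Marker genes followed the tissue labels: all 12 measured genes of hippocampal principal neurons were higher in hippocampus, and all 11 of bulb neurons were higher in the bulb, in both genotypes. Rasgrf2 itself averaged 8.63 in knockout and 9.21 in wild-type hippocampus (difference -0.58, limma adjusted p = 0.00197) and 9.37 against 9.51 in the bulb (difference -0.14, adjusted p = 0.532). On 1 wild-type bulb array, that of animal 1, the mucosa gene Cyp2g1 read 8.29 against 5.37 to 5.74 on the others. The mean of 8 olfactory sensory neuron and mucosa genes there was 7.69, against 6.88 to 7.19 on the remaining bulb arrays. Leaving out that array left the 7 receptors called between the wild-type tissues at 7. A set of 24 genes of liver, pancreas, muscle, testis and other organs had medians of 5.79 to 6.06 over the arrays, and the highest single one read 7.00 to 7.44. Probe sets differ in affinity, so this is only a rough sign of where background readings lie, and no receptor's level is set against another's.

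Htr3a was higher in knockout than in wild type in both tissues. Htr3a read 6.77, 6.92 and 6.73 in wild-type hippocampus and 7.38, 7.65 and 7.35 in knockout hippocampus. Its bulb readings were 6.64, 6.69 and 6.80 in wild type and 7.67, 7.60 and 7.58 in knockout. Every knockout reading lay above every wild-type reading of its tissue. The wild-type groups averaged 6.81 ± 0.10 (SD, n = 3) in hippocampus and 6.71 ± 0.081 (SD, n = 3) in bulb. The knockout groups averaged 7.46 ± 0.17 (SD, n = 3) and 7.61 ± 0.047 (SD, n = 3). The difference was 0.65 in hippocampus (SE 0.0868, 95% interval 0.47 to 0.84), a 1.57-fold higher signal, and 0.90 in the bulb (SE 0.0868, 95% interval 0.72 to 1.09), a 1.87-fold higher signal. The hippocampal difference less the bulb difference was -0.25 (95% interval -0.51 to 0.013), an interval that includes 0. In wild type the group means lay 0.43 below the median gene of the arrays in hippocampus and 0.60 below it in bulb, and in knockout 0.18 and 0.31 above it. All 6 wild-type readings lie below the highest other-organ gene of their array, as does 1 of the 6 knockout readings, so these folds too may be lower bounds. These are tissue extracts, in which more cells of a type and more RNA per cell cannot be told apart.

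Between the tissues Htr3a did not pass the threshold. Hippocampus less bulb was 0.099 in wild type (SE 0.0868, adjusted p = 0.390) and -0.15 in knockout (adjusted p = 0.197). Under quantile normalization over the 12 arrays the wild-type difference was 0.22 and passed. Without the knockout hippocampal array of animal 5, the highest of its group, the knockout difference was -0.25 and passed.

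Htr3b encodes the subunit that joins HTR3A in mixed channels and needs it to reach the cell surface. Htr3b read 6.17, 6.28 and 5.91 in wild-type hippocampus and 6.17, 6.13 and 6.33 in knockout hippocampus. Bulb arrays gave 6.18, 6.30 and 6.38 in wild type and 6.24, 6.14 and 5.80 in knockout. The groups overlap throughout, and all 4 means lie below the median gene of the arrays. On every array Htr3b read below the highest other-organ gene, so its readings may be background. The genotype difference was 0.089 in hippocampus (95% interval -0.16 to 0.34) and -0.23 in bulb (95% interval -0.47 to 0.02). Htr3b therefore had no difference past the threshold beside the 0.65 and 0.90 of Htr3a. Between the tissues it differed by -0.17 in wild type (adjusted p = 0.277) and 0.15 in knockout (adjusted p = 0.339).

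**Figure D1:**
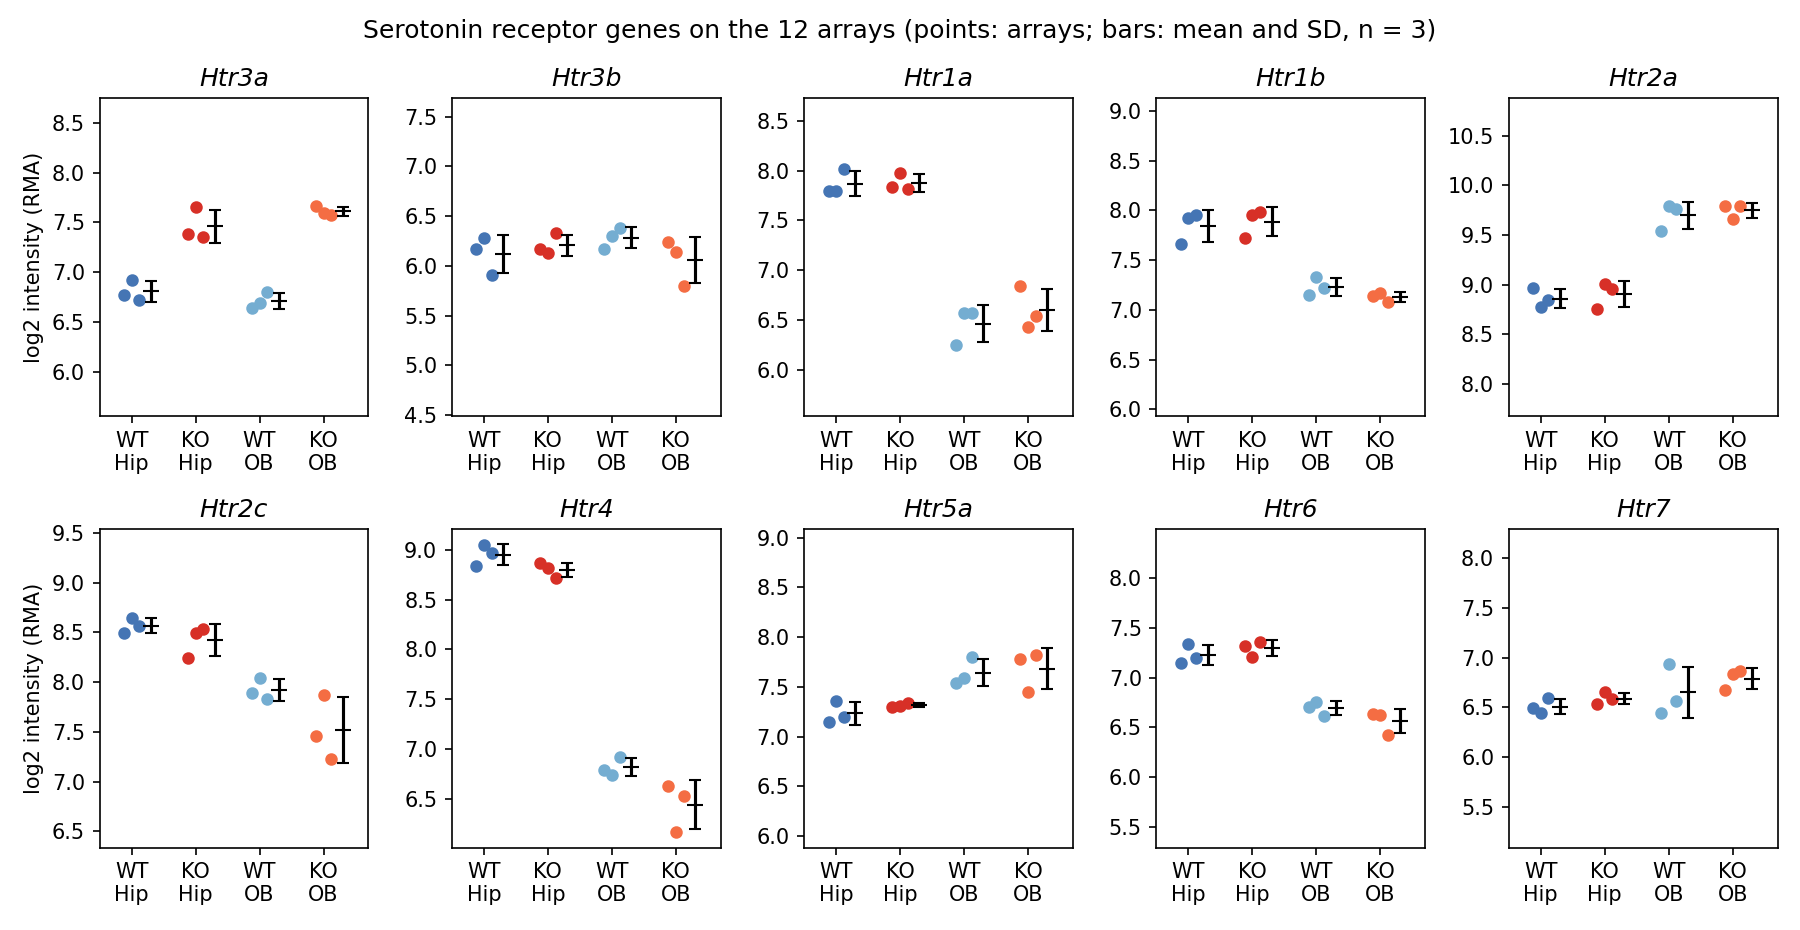
Log2 intensity of the 10 receptor genes on the 12 arrays, by tissue (Hip, hippocampus; OB, olfactory bulb) and genotype, on vertical axes that all span the same range; points are arrays and bars the mean and SD of 3. Htr3a steps up in knockout in both tissues, and Htr4 and Htr1a step down from hippocampus to bulb in both genotypes.

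Markers of the interneuron class known for Htr3a are given beside it. Of 15 such genes, among them Vip, Reln, Cck, Npy and Calb2, 0 passed in either tissue between genotypes with limma, where 0.256% of all genes passed in hippocampus and 0.411% in bulb. At an unadjusted p under 0.05 there were 2 in hippocampus and 1 in bulb, where 8.91% and 11.3% of all genes had one. The genotypes did not overlap for 4 of the 15 in each tissue, where 13.1% and 17.1% of all genes did not. Their median difference was 0.011 in hippocampus and 0.015 in bulb, beside 0.034 and -0.016 over all genes. Their mean level ran from 8.49 to 8.61 on knockout and 8.54 to 8.61 on wild-type hippocampal arrays. In the bulb it ran from 9.29 to 9.32 in knockout and 9.21 to 9.36 in wild type. The group ranges overlap in both tissues. Reln and Sp8 are also among the bulb neuron genes used above, so the bulb values do not single out that interneuron class.

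Htr3a and Htr3b are neighbours on chromosome 9, with no measured gene between them in RefSeq order (assembly GRCm38.p6, used for order only). Of the 10 measured genes on each side of Htr3a, 1 passed the threshold between genotypes in each tissue, where 0.256% of all genes passed in hippocampus and 0.411% in bulb. It was Nxpe4, 8 genes away, higher in knockout by 0.51 in hippocampus and 0.41 in bulb. On the Nxpe4 side, the genes nearest to Htr3a, Nnmt (0.18 and -0.13) and Zbtb16 (0.04 and 0.006), did not pass. On the Htr3b side Usp28 (-0.03 and 0.02) did not pass. A wider window of 35 genes on each side, chosen after the values were seen, held 70 genes. In it 4 passed in hippocampus and 3 in bulb, with Nxpe4 and Cryab in both, Sdhd and Layn in hippocampus and Pts in bulb. Cryab, a small heat shock protein gene 23 genes from Htr3a, was higher in knockout by 0.94 and 1.02. Layn, 30 genes away, was higher by 0.88 in hippocampus and did not pass in bulb (0.30). Around each of the 8 receptor genes other than Htr3a and Htr3b, 0 of the 20 nearest genes passed in either tissue.

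**Figure D2:**
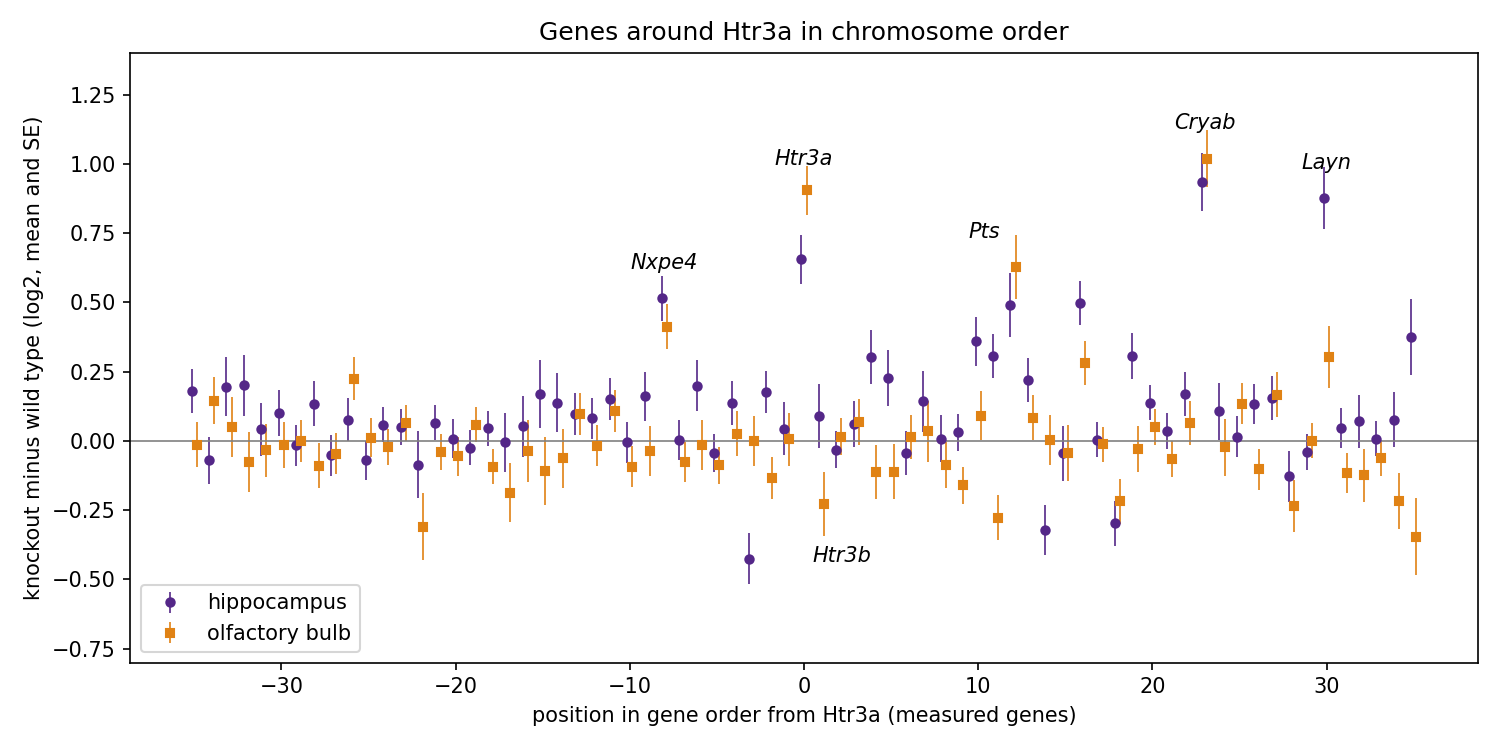
Knockout minus wild type in log2 intensity for measured genes in order along the chromosome, with Htr3a at 0 on the horizontal axis (counted in genes, not bases); points are fitted differences and bars the SE. Htr3a and Cryab stand highest in bulb, Pts lies between them at 0.63 in bulb and 0.49 in hippocampus, and Htr3b, the gene next to Htr3a, lies at 0.089 in hippocampus and -0.23 in bulb.

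The genes whose pattern was most like that of Htr3a were found by Pearson r over the 12 arrays after each tissue's mean was subtracted, among 857 genes with an SD of at least 0.2. The highest were Rnps1 (r = 0.989), Pla2g4e (0.969) and Slc39a2 (0.968), followed by 2 transcripts with clone names. The lowest were Adhfe1 (-0.981), Snapc1 (-0.973), Mid1 (-0.971), Slc38a6 (-0.961) and Akr1c14 (-0.958). The arrays share the genotype split on which Htr3a was chosen, so these values describe the arrays and carry no test.

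The tissue contrast was not used to choose the list, and there 7 of the 10 receptors passed in each genotype. In wild type 40.9% of all genes passed, 17.5% higher in hippocampus and 23.4% higher in bulb. In knockout 39.1% passed, 19.2% higher and 19.9% lower. The same 5 receptors, Htr1a, Htr1b, Htr2c, Htr4 and Htr6, were higher in hippocampus in both genotypes, and the same 2, Htr2a and Htr5a, were higher in bulb. The median of the 10 differences was 0.32 in wild type and 0.44 in knockout, beside -0.07 and 0.013 over all genes.

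Htr1a, the Gi-coupled receptor that opens potassium channels and quiets neurons, was higher in hippocampus. Htr1a read 7.80, 7.80 and 8.01 in wild-type hippocampus and 7.83, 7.98 and 7.81 in knockout hippocampus. In bulb the readings were 6.25, 6.57 and 6.56 in wild type and 6.84, 6.43 and 6.54 in knockout. No bulb reading reached the lowest hippocampal one. The difference was 1.41 in wild type (SE 0.112, adjusted p = 8.21e-08), 2.65-fold, and 1.27 in knockout (adjusted p = 2.41e-07), 2.42-fold. The 6 bulb readings of Htr1a lie below the highest other-organ gene of their array, so the folds would be lower bounds if those readings are background. Htr1b, a Gi-coupled receptor of axon terminals that holds back transmitter release, went the same way by less. Htr1b read 7.66, 7.92 and 7.95 in wild-type hippocampus and 7.72, 7.96 and 7.99 in knockout hippocampus. Its bulb readings were 7.15, 7.33 and 7.22 in wild type and 7.15, 7.17 and 7.08 in knockout. Its tissues do not overlap in either genotype. The difference was 0.61 (SE 0.0924, adjusted p = 7.01e-05) in wild type and 0.76 (adjusted p = 8.56e-06) in knockout. In bulb Htr1b lay below the highest other-organ gene of the array on 2 of 3 wild-type and 3 of 3 knockout arrays.

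Htr5a, the remaining Gi-coupled receptor on the list, was higher in bulb. Htr5a read 7.15, 7.36 and 7.19 in wild-type hippocampus and 7.30, 7.31 and 7.34 in knockout hippocampus. Bulb arrays gave 7.54, 7.59 and 7.80 in wild type and 7.78, 7.45 and 7.82 in knockout. The lowest bulb reading of each genotype lies above the highest hippocampal reading of the same genotype. The difference was -0.41 (SE 0.0994, adjusted p = 0.00368) in wild type and -0.37 (adjusted p = 0.00754) in knockout. Of the other Gi-class receptors, Htr1d and Htr1f were also higher in bulb. Htr1d was lower in hippocampus than in bulb by 1.14 in wild type (limma difference -1.14, adjusted p = 5.52e-08) and by 0.76 in knockout (difference -0.76, adjusted p = 4.37e-06). Its group means were 5.44 in wild-type and 5.58 in knockout hippocampus, and 6.58 and 6.34 in bulb. On every array Htr1d read below the highest other-organ gene, so its readings may be background. Htr1f differed by -0.88 and -1.10 (adjusted p = 4.46e-06 and 3.98e-07). Htr5b, the close relative of Htr5a, did not pass in wild type (-0.16, adjusted p = 0.0930) and was higher in hippocampus in knockout (0.22, adjusted p = 0.0284).

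Among the Gq-coupled receptors, Htr2a and Htr2c went opposite ways. Htr2a read 8.97, 8.77 and 8.84 in wild-type hippocampus and 8.76, 9.00 and 8.96 in knockout hippocampus. In bulb the readings were 9.54, 9.79 and 9.77 in wild type and 9.79, 9.66 and 9.79 in knockout. Htr2a was higher on all 6 bulb arrays than on any hippocampal array. The difference was -0.84 in wild type (SE 0.0888, adjusted p = 1.88e-06) and -0.84 in knockout (adjusted p = 1.83e-06), and the bulb signal was 1.79-fold higher in wild type. Htr2c read 8.49, 8.65 and 8.56 in wild-type hippocampus and 8.24, 8.49 and 8.53 in knockout hippocampus. Its bulb readings were 7.89, 8.04 and 7.83 in wild type and 7.45, 7.87 and 7.22 in knockout. Htr2c readings of the tissues do not overlap in either genotype. It was higher in hippocampus, by 0.64 in wild type (SE 0.131, adjusted p = 0.000954) and 0.90 in knockout (adjusted p = 4.62e-05). Htr2b, known mainly outside the brain, differed by -0.10 and 0.013 (adjusted p = 0.323 and 0.920).

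Htr2c is also abundant in the choroid plexus, the epithelium of the ventricles, which can be caught in a dissection. Ttr, the main transcript of that epithelium, read 11.66, 8.80 and 9.80 in wild-type and 10.47, 10.90 and 9.73 in knockout hippocampus. It read 9.29, 8.76 and 8.93 in wild-type and 8.43, 9.29 and 8.25 in knockout bulb. In wild-type hippocampus the array with the highest Ttr had the lowest Htr2c of its group, and in knockout bulb the 3 arrays rank the same way for both genes. In knockout hippocampus and in wild-type bulb the array with the lowest Ttr had the highest Htr2c of its group. The 12 choroid plexus genes measured had mean levels of 6.31 to 6.83 in wild-type hippocampus, 6.54 to 6.66 in knockout hippocampus, 6.46 to 6.48 in wild-type bulb and 6.29 to 6.47 in knockout bulb. Between the tissues 3 of the 12 passed in wild type and 7 in knockout, where 40.9% and 39.1% of all genes passed. Between genotypes 0 of the 12 passed in either tissue with limma, where 0.256% of all genes passed in hippocampus and 0.411% in bulb. At an unadjusted p under 0.05 there were 2 in hippocampus and 0 in bulb, where 8.91% and 11.3% of all genes had one. The part of choroid plexus in the tissue and genotype differences of Htr2c was not tested. After subtracting tissue means, the genes most like Htr2c were Enc1 (r = 0.907), Mal2 (0.904), Tafa1 (0.894), Olfr862 (0.882) and Nmbr (0.852), and the least like, beside 1 transcript with a clone name, were Ccn4 (-0.874), Chrna3 (-0.858), Uqcc1 (-0.793) and Greb1l (-0.760), over the 12 arrays, with no test.

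The Gs-coupled Htr4, which raises excitability in hippocampal pyramidal neurons, differed most between the tissues. Htr4 read 8.84, 9.05 and 8.97 in wild-type hippocampus and 8.87, 8.81 and 8.72 in knockout hippocampus. Bulb arrays gave 6.79, 6.74 and 6.92 in wild type and 6.63, 6.17 and 6.52 in knockout. Every hippocampal reading lay above every bulb reading. The difference was 2.13 in wild type (SE 0.105, adjusted p = 3.47e-10), 4.38-fold, and 2.36 in knockout (adjusted p = 1.19e-10), 5.13-fold. All 6 bulb readings of Htr4 lie below the highest other-organ gene of their array, so these folds would be lower bounds if the bulb readings are background.

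Htr6, a Gs-coupled receptor found almost only in the nervous system, was also higher in hippocampus. Htr6 read 7.15, 7.34 and 7.20 in wild-type hippocampus and 7.32, 7.21 and 7.36 in knockout hippocampus. In bulb the readings were 6.70, 6.76 and 6.62 in wild type and 6.63, 6.63 and 6.42 in knockout. The difference was 0.54 in wild type (SE 0.0801, adjusted p = 6.17e-05) and 0.73 in knockout (adjusted p = 2.56e-06), with no overlap of the tissues. Its 6 bulb readings also lie below the highest other-organ gene of their array. Htr7, the remaining Gs-coupled receptor, did not pass. Htr7 read 6.49, 6.44 and 6.59 in wild-type hippocampus and 6.54, 6.65 and 6.58 in knockout hippocampus. Its bulb readings were 6.45, 6.94 and 6.56 in wild type and 6.67, 6.83 and 6.86 in knockout. Its wild-type tissues overlap, and its knockout tissues do not. The difference was -0.14 in wild type (adjusted p = 0.308) and -0.20 in knockout (adjusted p = 0.153). Without the wild-type bulb array of animal 2, which has the highest Htr7 reading, the knockout difference of -0.20 passed. On every array Htr7 read below the highest other-organ gene, so its readings may be background.

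**Figure D3:**
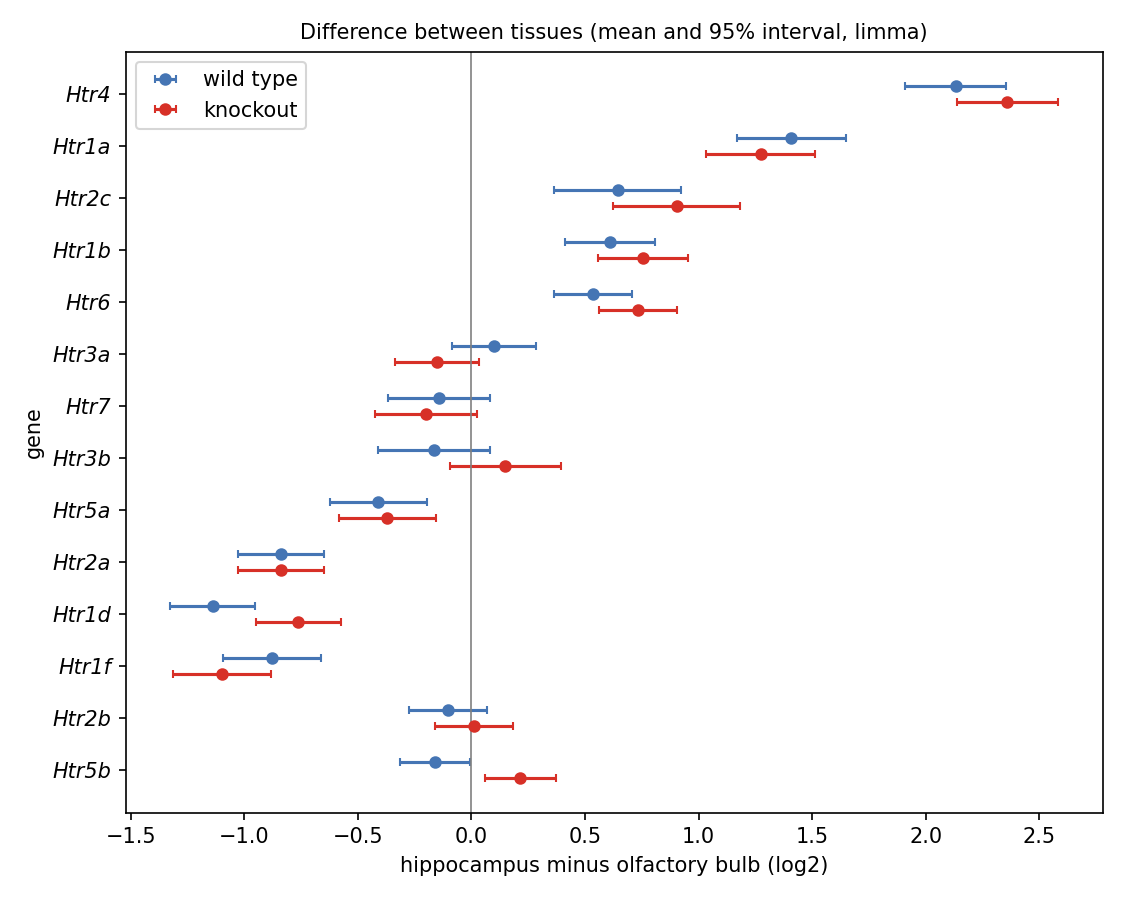
Hippocampus minus olfactory bulb in log2 intensity for the 10 receptor genes, ordered by the wild-type value, and for Htr1d, Htr1f, Htr2b and Htr5b below them; points are fitted differences and bars 95% intervals. Htr4 and Htr1a lie farthest to the hippocampal side, and Htr1d, Htr1f and Htr2a farthest to the bulb side.

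Between genotypes, Htr3a is left out of the counts of calls because it was chosen on this contrast. Of the other 9 receptors, limma called 0 in either tissue, where 0.256% of all genes passed in hippocampus and 0.411% in bulb. At an unadjusted p under 0.05 there were 0 in hippocampus and 2 in bulb (Htr2c and Htr4), where 8.91% and 11.3% of all genes had one. Their median difference was 0.046 in hippocampus and -0.10 in bulb. Readings of the genotypes did not overlap for 0 of these 9 receptors in hippocampus (13.1% of all genes) and for 1 in bulb, Htr4 (17.1% of all genes).

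Htr4 in bulb was -0.38 in knockout relative to wild type (95% interval -0.60 to -0.16), against -0.15 in hippocampus (95% interval -0.37 to 0.073). Htr2c in bulb was -0.41 (95% interval -0.69 to -0.13), with overlapping readings, against -0.15 in hippocampus (95% interval -0.43 to 0.13). Without the knockout bulb array of animal 5, the highest of its group for Htr2c, that difference was -0.58 and passed. For the Gi-coupled receptors the intervals bound the difference in signal. RMA compresses differences near background. All bulb readings of Htr1a, Htr4, Htr6 and Htr7 and most of Htr1b lie below the highest other-organ gene of their array. There the intervals do not bound the difference in RNA. Htr1a differed by 0.0065 in hippocampus (95% interval -0.23 to 0.25) and 0.14 in bulb (95% interval -0.099 to 0.38). Htr1b differed by 0.043 (95% interval -0.15 to 0.24) and -0.10 (95% interval -0.30 to 0.096). The intervals of both receptors include 0 in each tissue. Htr5a differed by 0.082 (95% interval -0.13 to 0.29) and 0.041 (95% interval -0.17 to 0.25). Htr2a differed by 0.046 (95% interval -0.14 to 0.24) and 0.049 (95% interval -0.14 to 0.24). Htr6 and Htr7 also stayed within intervals that include 0: Htr6 differed by 0.067 (95% interval -0.10 to 0.24) and -0.13 (95% interval -0.30 to 0.04). Htr7 differed by 0.08 (95% interval -0.14 to 0.30) and 0.14 (95% interval -0.085 to 0.36).

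**Figure D4:**
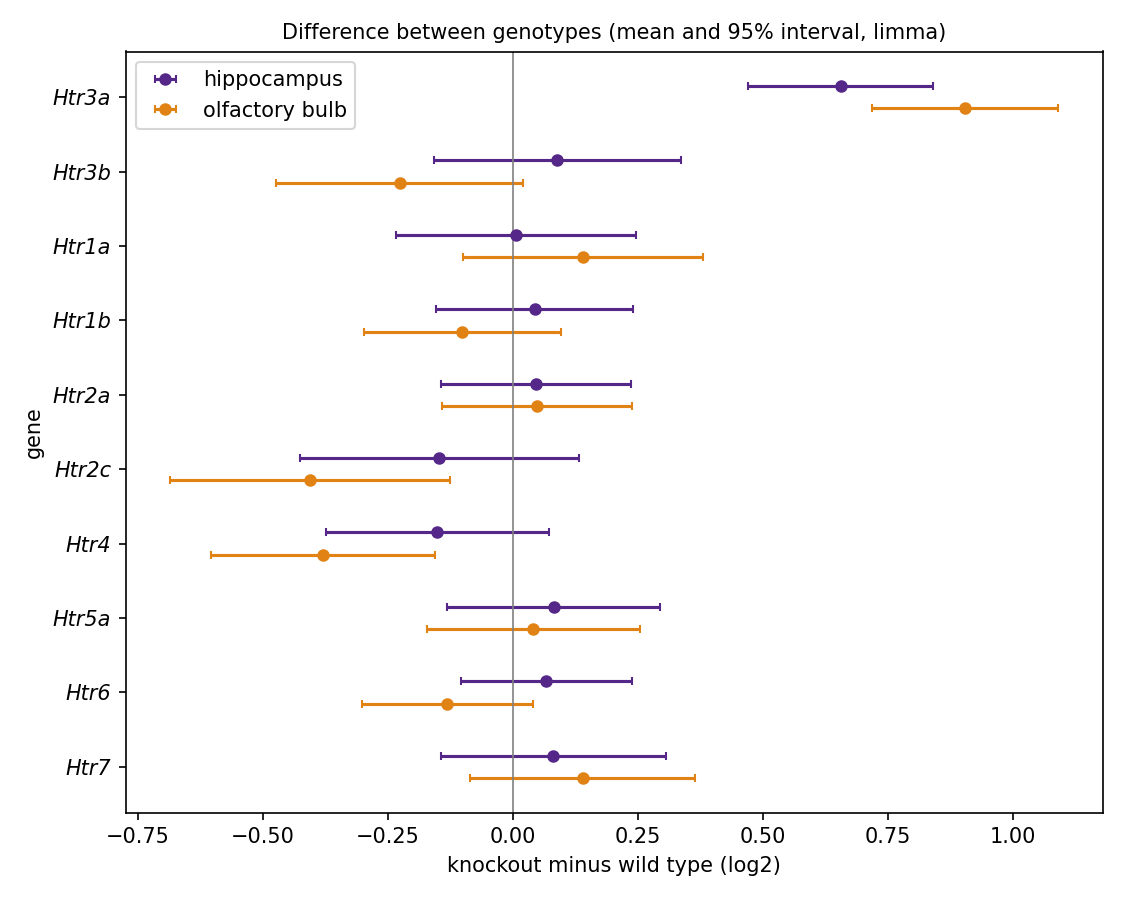
Knockout minus wild type in log2 intensity for the 10 receptor genes in hippocampus and olfactory bulb; points are fitted differences and bars 95% intervals. Htr3a was chosen on this contrast, so its points and intervals are a description and not a test. Among the other 9 receptors the bulb intervals of Htr2c and Htr4 lie below 0, and the remaining intervals include 0.

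Whether the genotype difference varied with the tissue was tested for the 9 receptors other than Htr3a. limma called 0 of them, where 0.015% of all genes were called. An unadjusted p under 0.05 was found for 0 of them, and for 10.7% of all genes. The farthest from 0 was Htr3b, at 0.32 (SE 0.163, adjusted p = 0.496). Htr2c followed at 0.26 (adjusted p = 0.616) and Htr4 at 0.23 (adjusted p = 0.583).

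The genes that make, carry and break down serotonin showed 1 genotype call. Of 14 measured, 0 passed in hippocampus (5 at an unadjusted p under 0.05), and in bulb Pts passed (3 unadjusted). Over all genes 0.256% and 0.411% passed, and 8.91% and 11.3% had such an unadjusted p. Pts makes an intermediate of tetrahydrobiopterin, the cofactor of tryptophan hydroxylase, and lies 12 genes from Htr3a. Pts read 6.98, 6.93 and 7.16 in wild-type and 7.41, 7.83 and 7.30 in knockout hippocampus. The bulb readings were 6.18, 6.39 and 6.23 in wild type and 6.95, 6.81 and 6.91 in knockout. The genotypes do not overlap in either tissue. The difference was 0.63 in bulb (SE 0.115, adjusted p = 0.0309) and 0.49 in hippocampus (adjusted p = 0.139). The rate-limiting brain enzyme Tph2 and the serotonin transporter Slc6a4, both made in raphe cell bodies, had group means of 5.31 to 5.47 and 5.66 to 5.99.

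Between the tissues, 9 of these 14 genes passed in wild type, 4 higher and 5 lower in hippocampus, and 8 in knockout, 4 each way, where 40.9% and 39.1% of all genes passed. The low-affinity transporter Slc29a4 was higher in hippocampus by 1.22 in wild type (adjusted p = 5.77e-08), as were Pts by 0.76 (adjusted p = 7.55e-05) and Qdpr, which recycles the same cofactor, by 0.33 (adjusted p = 0.00425). Lower in wild-type hippocampus than in bulb were the vesicle transporters Slc18a1 (-0.45, adjusted p = 0.00349) and Slc18a2 (-0.44, adjusted p = 0.0252) and the decarboxylase Ddc (-0.35, adjusted p = 0.00290). In knockout Slc18a1 averaged 5.60 in hippocampus and 5.46 in bulb, and its readings overlapped (5.35 to 5.75 and 5.34 to 5.52). In wild type Slc18a1 averaged 5.35 and 5.80, and Ddc 5.58 and 5.93. The 24 other-organ genes had medians of 5.79 to 6.06 over the arrays. In wild-type hippocampus 16 of these 24 also read lower than in bulb, 4 of them called, beside 23.4% of all genes. Their part in these differences was not tested. Of 22 G protein and effector genes, limma called 0 between genotypes in either tissue, beside the same 0.256% and 0.411% of all genes. Unadjusted there were 0 and 3, beside 8.91% and 11.3% of all genes. Between the tissues 16 of the 22 passed in each genotype, beside 40.9% and 39.1%. Adcy1, an adenylyl cyclase on which Gi and Gs receptors act, was higher in hippocampus by 2.40 in wild type (adjusted p = 7.08e-12), and Plcb4, a phospholipase C driven by Gq, lower (-2.41, adjusted p = 1.55e-09). Adcy8 differed by -1.64 (adjusted p = 3.69e-11). Of 9 partners, chaperones and editing enzymes, 0 passed between genotypes in either tissue with limma (1 and 0 unadjusted), beside 0.256% and 0.411% of all genes called and 8.91% and 11.3% unadjusted. Between the wild-type tissues all 9 passed, beside 40.9% of all genes: Mpdz, a scaffold that binds HTR2C, differed by 1.21 (adjusted p = 4.77e-09), and Adarb1, an enzyme that edits the Htr2c transcript, by -0.94 (adjusted p = 2.83e-07).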

How the data were processed

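Total RNA carrying a biotin label was read on single-colour arrays, per the labels' protocols. The deposited table gives a log2 intensity for each of 35556 probe sets on 12 arrays, made by the authors with RMA and oligo per the submitters' processing notes. RMA compresses differences near background. Software versions, the genome build and joint normalization of the tissues are not given in the sources used.

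Probe sets with 1 gene symbol were kept, with the brightest standing for each gene, and none was removed for dimness. The 10 receptors and all gene lists were chosen with earlier results of these data known. limma 3.58.1 in R 4.3.3 fitted 4 group means over all 12 arrays on the deposited log2 values, with p-values adjusted by Benjamini-Hochberg over 19938 genes at 0.05. The fit was checked on simulated data. SDs are over 3 animals, SEs and 95% intervals are limma's, and p-values rest on the spread between arrays, whose number limits the precision. Named genes are the 10 receptors, the other receptor genes, neighbours of Htr3a, and the 5 genes most and least like Htr3a or Htr2c. Called list members are named in part, at most 6 and not strictly by size, with up to 3 others.

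Both tissues come from the same animals, by an animal code in the labels. The code and the animal number in the titles match wild-type animals 1 and 2 across tissues differently. Deviations of paired tissues from their group means correlated at -0.255 to 0.116 over genes by the code and at -0.208 to 0.252 by the number. Alternatives were the animal as a block, array weights, trend and robust moderation, quantile normalization, median centring, a filter on dim genes, each tissue or genotype alone, every probe set, the mean of a gene's probe sets, and leaving out each array.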

Additional observations from a re-analysis of the deposited data

Results flagged for a closer look

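Htr5b, a receptor gene outside the 10, had knockout differences of opposite sign in the tissues, without overlap of the genotypes. Its hippocampal readings were 6.93, 6.93 and 7.00 in wild type and 7.25, 7.06 and 7.24 in knockout. Its bulb readings were 7.17, 7.063 and 7.10 in wild type and 6.93, 6.91 and 7.059 in knockout, so the bulb groups nearly touch. Over all genes the genotypes did not overlap for 13.1% in hippocampus and 17.1% in bulb. Htr5b was flagged by a search of all listed genes for such patterns. Knockout less wild type was 0.23 in hippocampus and -0.15 in bulb, neither past the threshold. The difference between these effects was 0.38 (SE 0.103), with an unadjusted p of 0.00244 and a limma adjusted p of 0.362 over all genes, so it did not pass. The 24 genes of other organs, used as a rough sign of background readings, lean the same way: their median difference was 0.093 in hippocampus (19 of 24 higher in knockout) and -0.047 in bulb (17 of 24 lower), and the difference between effects was positive for 20 of 24 (median 0.15). Their part in the Htr5b values was not tested.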

How the results depend on the processing

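Most differences of single receptors stayed on their side of the threshold under the alternatives. Between genotypes these were 176 of 176 values in hippocampus and 175 of 176 in bulb. Between the tissues they were 214 of 215 in wild type and 211 of 215 in knockout. All 205 values of the difference between effects also counted as unchanged. They include 20 of Htr3a, which was not tested there and counted so when its sign held and its shift was below its SD within groups. The report names 4 of the 6 values that did not stay. The others are Htr3a (-0.20) and Htr7 (-0.24) between the knockout tissues, which passed with array weights. No called difference changed sign, but differences that did not pass did so in 14 values of 4 receptors in hippocampus, 4 of 2 in bulb, 1 of 1 between the wild-type tissues and 11 of 3 for the difference between effects. The genotype difference of Htr3a ranged from 0.56 to 0.71 in hippocampus and 0.87 to 0.95 in bulb. When only genes at or above the median gene were tested, the receptors past the threshold between genotypes were 0 in hippocampus and 0 in bulb, against 1 each, which is Htr3a and no test since it was chosen on this contrast. That filter leaves out Htr3a among the 5 receptors below it. Leaving out each array gave 1 in hippocampus and 1 to 2 in bulb. With the animal as a replicate block, by the code or by the number, 7 receptors passed between the tissues in each genotype and 0 for the difference between effects, so it changed no call. Over all genes, genotype calls ran from 28 (that tissue's arrays alone) to 336 (array weights) in hippocampus, against 51, and from 35 (without the knockout array of animal 6) to 136 (trend and robust settings) in bulb, against 82; calls of the difference between effects ran from 0 to 12, against 3.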
